A study of Mus musculus with 10 samples.

Results

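The Toll-like receptor genes Tlr1, Tlr2, Tlr3, Tlr4, Tlr6, Tlr7, Tlr9 and Tlr13 were examined in whole B16 tumors, together with Unc93b1, which carries receptors to endosomes, and Myd88, the adaptor that most of them share. Members were all probe sets whose platform annotation gave exactly one of these 10 gene symbols, which gave 16 of the 34945 single-gene probe sets. At the level of genes, with the brightest probe set standing for a gene, they were 10 of 18193. RNA of 10 tumors was hybridised to 1-colour expression arrays, 5 labelled wild type and 5 labelled Bach2-deficient. All tumors were of B16, a transplantable mouse melanoma line, and the strain background of both groups was C57BL/6. The labels name no treatment other than mechanical dissociation of the dissected tumor, and they give no age or sex. How Bach2 was disrupted, and whether in the host, in the tumor cells or in both, is not stated in them. Separate animals are not named either, so each p-value reflects only the sample-to-sample spread, some of which may be technical.

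Toll-like receptors are membrane proteins that recognise conserved microbial molecules and some products of damaged cells. Tlr1, Tlr2, Tlr4 and Tlr6 act at the cell surface, where Tlr2 pairs with Tlr1 or Tlr6 to bind lipopeptides and Tlr4 senses lipopolysaccharide. Tlr3, Tlr7, Tlr9 and Tlr13 act in endosomes, where they read double-stranded RNA, single-stranded RNA, unmethylated CpG DNA and bacterial ribosomal RNA, and Unc93b1 brings them there. Myd88 links every one of these receptors except Tlr3 to the kinases that activate NF-kappaB. Macrophages and dendritic cells are known for broad expression of the family, and Tlr9 is known also from B cells.

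The starts of these genes are shown because most of the genes moved together, and because factors of interferon signalling, PU.1, NF-kappaB and BACH proteins have known recognition sequences. The RefSeq promoter table (build GRCm38.p6) held 9 promoters of 7 members and none for Tlr4, Tlr7 or Unc93b1. Each window runs from 250 bases before the start to 50 after it, and the stretches below are the 100 bases around the match, all before the start, written 5′ to 3′ on the gene's own strand with the matched letters in capitals.

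Myd88, chr9:119340019-119340118, minus strand: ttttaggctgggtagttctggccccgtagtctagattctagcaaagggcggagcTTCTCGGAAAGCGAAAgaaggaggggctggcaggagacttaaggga
Tlr6, chr5:64959225-64959324, minus strand: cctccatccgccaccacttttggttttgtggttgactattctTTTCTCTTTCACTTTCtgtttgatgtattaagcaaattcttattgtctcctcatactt
Tlr1, chr5:64932850-64932949, minus strand: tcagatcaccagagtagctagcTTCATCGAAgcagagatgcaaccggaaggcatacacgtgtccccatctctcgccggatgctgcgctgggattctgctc
Tlr2, chr3:83841727-83841826, minus strand: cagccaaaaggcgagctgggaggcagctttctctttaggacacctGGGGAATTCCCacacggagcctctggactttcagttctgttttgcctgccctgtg
Tlr13, chrX:106143145-106143244, plus strand: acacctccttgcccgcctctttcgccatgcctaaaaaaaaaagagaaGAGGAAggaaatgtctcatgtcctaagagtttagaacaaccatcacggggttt
Tlr9, chr9:106222493-106222592, plus strand: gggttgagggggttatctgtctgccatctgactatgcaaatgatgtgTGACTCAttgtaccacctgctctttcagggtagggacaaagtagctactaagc

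The capitals of Myd88 mark a gamma-activated site (GAS, TTCNNNGAA) that begins 46 bases before the start and overlaps the core of an interferon-stimulated response element (ISRE, GAAA and GAAA with 2 bases of any kind between). In Tlr6 they mark 2 overlapping ISRE cores on the opposite strand, in Tlr1 a GAS, in Tlr2 a pair of overlapping NF-kappaB cores (GGG and CC with 5 bases of any kind between), in Tlr13 the core bound by PU.1 (GAGGAA) and in Tlr9 the core shared by AP-1 and BACH proteins (TGANTCA). Both strands were searched. The promoter of Tlr3, a gene that was not called, is not shown, and it held 3 NF-kappaB cores. Tlr1 and Tlr6 had 2 promoters each, and the motif shown was found in only 1 of them. Among the 9 member promoters, 2 held the ISRE core, 3 the GAS, 3 the PU.1 core, 3 the NF-kappaB core and 1 the AP-1 and BACH core. Of all 32851 promoters in the table, 3.44% held the ISRE core, 8.3% the GAS, 28.3% the PU.1 core, 50.8% the NF-kappaB core and 7.81% the AP-1 and BACH core. These matches describe the letters of the window and show no binding.

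Facts of the whole series bear on every comparison here. Array medians over all probe sets lay between 5.80 and 5.88 (log2). Bach2 itself, on its brightest probe set, read 6.96 ± 0.76 in wild type and 5.89 ± 0.55 in Bach2-deficient tumors (SD, n = 5 each), a change of -1.07 that did not pass (limma adjusted p = 0.0551). The disrupted stretch of the gene is not known here, so this probe set may not check the labels. The tumor label was checked on the pigment gene Dct, which encodes a melanin synthesis enzyme. It read 13.5 to 13.6 on the wild-type arrays and 13.1 to 13.4 on the Bach2-deficient ones (change -0.33, limma adjusted p = 0.0231). Among the 5 melanocyte markers that fell, Dct had the smallest change and S100b the largest (-1.96, limma adjusted p = 0.000329). Poly-A spike controls, added before labelling, read 11.9 to 12.4 on wild-type arrays and 9.93 to 10.2 on Bach2-deficient arrays, so that genotype and array handling cannot be told apart. Hybridization controls also parted the groups, at 11.958 to 12.635 on wild-type and 11.548 to 11.877 on Bach2-deficient arrays. Xist, the RNA that coats a silenced X chromosome, was between 11.4 and 12.2 on every wild-type array and at 11.9 on Bach2-deficient replicate 2, and between 4.76 and 6.61 on the other Bach2-deficient arrays. Genes of the Y chromosome split the arrays in the same way. Eif2s3y read 10.52 to 10.93 on the low-Xist arrays, 4.50 on Bach2-deficient replicate 2 and 5.07 to 7.68 in wild type. Kdm5d read 7.17 to 8.39, 2.90 and 3.24 to 5.03. Over the gene table, with 1 probe set a gene, array medians were 6.68 to 6.89 in wild type and 6.9 to 7.0 in Bach2-deficient tumors. Centring each array on that gene-table median moved the median change of all genes from -0.06 to -0.22 and the split of calls from 2962 higher and 2264 lower to 2288 higher and 4816 lower.

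Most of the family was higher in the Bach2-deficient tumors. Myd88, Tlr2, Tlr1, Unc93b1, Tlr13, Tlr7 and Tlr4 rose, by 0.99 to 2.57 on the log2 scale, Tlr6 was higher without passing, and Tlr3 and Tlr9 were not called. That is 7 of 10 genes called, every one a rise, where 28.7% of all genes tested were called, 16.3% as rises and 12.4% as falls. Among the 16 probe sets 8 rose, and 0 fell, where 24.2% of all single-gene probe sets were called, 14.1% as rises and 10.1% as falls. A gene or probe set is called at a Benjamini-Hochberg adjusted p under 0.05 in limma over all genes or all single-gene probe sets. Changes are Bach2-deficient minus wild type. In whole tumors, more cells of a type and more RNA per cell cannot be told apart.

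**Figure D1:**
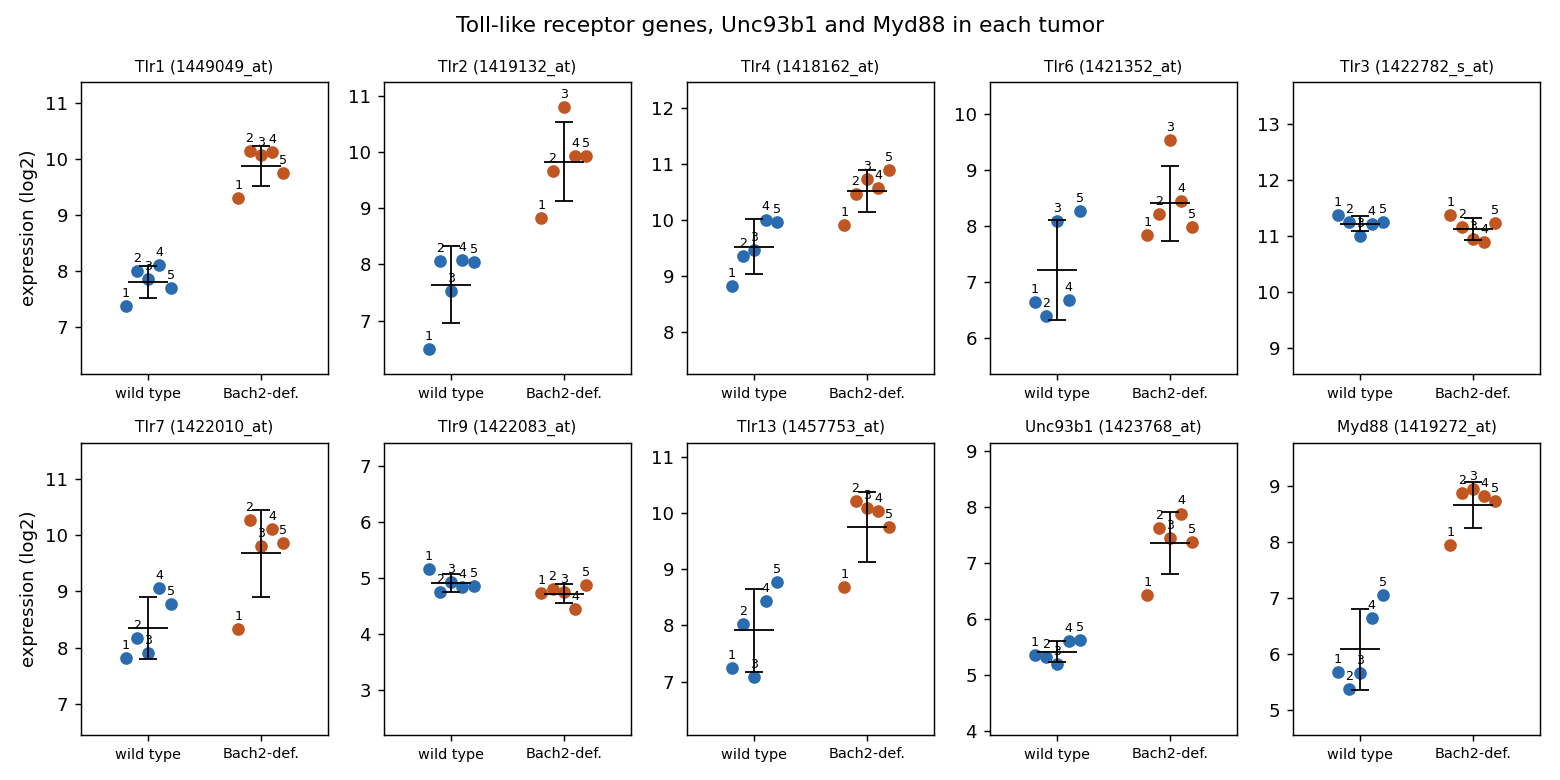
Log2 expression of the 10 genes on each of the 10 arrays, 5 wild-type (blue) and 5 Bach2-deficient (orange), with the replicate number above each point; bars give the mean and SD, and every panel spans the same number of log2 units. The groups do not overlap for Tlr1, Tlr2, Unc93b1 and Myd88, while Tlr3 and Tlr9 lie close together in both groups.

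Among the surface receptors, Tlr1 and Tlr2 had the largest rises. Tlr1 read 7.38, 7.99, 7.86, 8.11 and 7.69 on wild-type arrays 1 to 5 and 9.30, 10.14, 10.06, 10.11 and 9.75 on Bach2-deficient arrays 1 to 5. Every Bach2-deficient array lay above every wild-type one, by more than 1 log2 unit. The change was 2.07 (SE 0.19, 95% interval 1.64 to 2.49, 4.19-fold, limma adjusted p = 0.000164), the smallest SE among the 7 genes that rose. Tlr2, the shared partner of Tlr1 and Tlr6, read 6.49, 8.06, 7.53, 8.08 and 8.04 in wild type and 8.82, 9.67, 10.80, 9.94 and 9.94 in Bach2-deficient tumors. The groups did not overlap here either, although wild-type replicate 1 was far below its group and Bach2-deficient replicate 1 was the lowest of its own. The change was 2.19 (SE 0.39, interval 1.33 to 3.06, 4.58-fold, limma adjusted p = 0.00271). In all, the groups did not overlap for 4 of the 10 genes, each time with the Bach2-deficient arrays above, which holds for 11.2% of all genes. Over all genes the groups did not overlap for 18.9%, and the Bach2-deficient arrays were below for 7.67%. Among probe sets they did not overlap for 5 of 16, again above, which holds for 9.81% of all.

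Tlr6, which lies beside Tlr1 with 0 protein-coding genes between them, was the surface receptor that did not pass. It read 6.65, 6.40, 8.10, 6.69 and 8.27 in wild type and 7.85, 8.22, 9.53, 8.45 and 7.98 in Bach2-deficient tumors. Wild-type replicates 3 and 5 stood well above the other wild-type arrays and inside the range of the Bach2-deficient group. The change was 1.18 (SE 0.44, interval 0.20 to 2.16, limma adjusted p = 0.0686). It passed without wild-type replicate 3 (1.40, adjusted p = 0.0455) or replicate 5 (1.44, adjusted p = 0.0312), and with array weights (1.25, adjusted p = 0.0389).

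Tlr4, the lipopolysaccharide receptor, had 4 probe sets. The brightest, 1418162_at, read 8.82, 9.36, 9.46, 10.01 and 9.97 in wild type and 9.92, 10.46, 10.74, 10.57 and 10.89 in Bach2-deficient tumors. Bach2-deficient replicate 1 lay under wild-type replicates 4 and 5, and the other arrays were apart. The change was 0.99 (SE 0.25, interval 0.43 to 1.55, 1.98-fold, limma adjusted p = 0.0149). Probe set 1418163_at read the gene at 6.00 to 7.23 in wild type and 7.47 to 8.89 in Bach2-deficient tumors, without overlap, and rose by 1.71 (SE 0.29; adjusted p = 0.00275 over all probe sets). The remaining probe sets were 1442827_at (0.74, adjusted p = 0.179) and 1430695_at (0.27, adjusted p = 0.342), the latter read at 2.79 to 4.01 on all arrays, among the dimmest signals of the table. The 2 Tlr4 probe sets that passed thus differed in the size of the rise, and all 4 pointed the same way.

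Of the endosomal receptors, Tlr13 and Tlr7 rose, and Tlr3 and Tlr9 did not pass. Tlr13, the ribosomal RNA sensor, read 7.24, 8.03, 7.08, 8.44 and 8.78 in wild type and 8.69, 10.22, 10.09, 10.04 and 9.75 in Bach2-deficient tumors. Only wild-type replicate 5 reached into the Bach2-deficient range. Bach2-deficient replicate 1 was more than 1 log2 unit under the others of its group. The change was 1.84 (SE 0.39, interval 0.99 to 2.70, 3.59-fold, limma adjusted p = 0.00603).

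Tlr7, the single-stranded RNA sensor, read 7.81, 8.17, 7.91, 9.06 and 8.78 in wild type and 8.33, 10.28, 9.81, 10.11 and 9.87 in Bach2-deficient tumors on its brightest probe set, 1422010_at. As for Tlr13, Bach2-deficient replicate 1 was low, here under wild-type replicates 4 and 5. The change was 1.33 (SE 0.38, interval 0.49 to 2.18, 2.52-fold, limma adjusted p = 0.0251). This call was the least stable of the 7: it held in 3 of 10 fits on 9 arrays, whose changes ran between 1.18 and 1.67, and was lost without wild-type replicate 1, 2 or 3 or Bach2-deficient replicate 2, 3, 4 or 5 (adjusted p from 0.0512 to 0.0657). Probe sets 1419848_x_at and 1449640_at, which the annotation ties to a single accession, differed by 1.12 each and did not pass (adjusted p = 0.198 and 0.212 over all probe sets). On both of them wild-type replicate 3 was the highest of all 10 arrays (8.40 and 8.53), whereas on 1422010_at it was the second lowest wild-type array. The mean of the 3 Tlr7 probe sets did not pass (1.19, limma adjusted p = 0.06).

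Tlr3, the double-stranded RNA sensor, stayed within the spread of both groups. Its brightest probe set, 1422782_s_at, read 11.37, 11.25, 11.00, 11.22 and 11.25 in wild type and 11.38, 11.17, 10.94, 10.90 and 11.23 in Bach2-deficient tumors. The range of the groups was nearly shared, and the change was -0.10 (SE 0.12, interval -0.35 to 0.16, limma adjusted p = 0.565). The interval leaves out a rise of the size measured for any of the 7 genes that rose. The second probe set, 1422781_at, pointed the other way, from 6.86 ± 0.33 to 7.30 ± 0.26 (SD, n = 5 each; change 0.44, interval 0.05 to 0.83), and did not pass (limma adjusted p = 0.0974 over all probe sets). Read as the mean of its probe sets the gene changed by 0.17 (adjusted p = 0.356), so its sign depends on the probe set.

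Tlr9, the CpG DNA sensor, read 5.16, 4.74, 4.92, 4.84 and 4.85 in wild type and 4.73, 4.80, 4.75, 4.44 and 4.87 in Bach2-deficient tumors. Its mean was below 4.98, the upper limit of the dimmest 30% of genes, so no statement of presence is made. The change was -0.18 (SE 0.11, interval -0.43 to 0.07, limma adjusted p = 0.246).

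The shared parts of the pathway moved clearly. Unc93b1 read 5.36, 5.32, 5.19, 5.61 and 5.62 in wild type and 6.43, 7.62, 7.45, 7.88 and 7.38 in Bach2-deficient tumors. The groups did not overlap, and the wild-type arrays were tight (SD 0.19). The change was 1.93 (SE 0.24, interval 1.41 to 2.46, 3.82-fold, limma adjusted p = 0.000482). Myd88 read 5.69, 5.39, 5.66, 6.65 and 7.06 in wild type and 7.95, 8.87, 8.94, 8.83 and 8.74 in Bach2-deficient tumors, again without overlap. Its change of 2.57 (SE 0.33, interval 1.84 to 3.31, 5.96-fold, limma adjusted p = 0.000595) was the largest of the 10 genes.

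**Figure D2:**
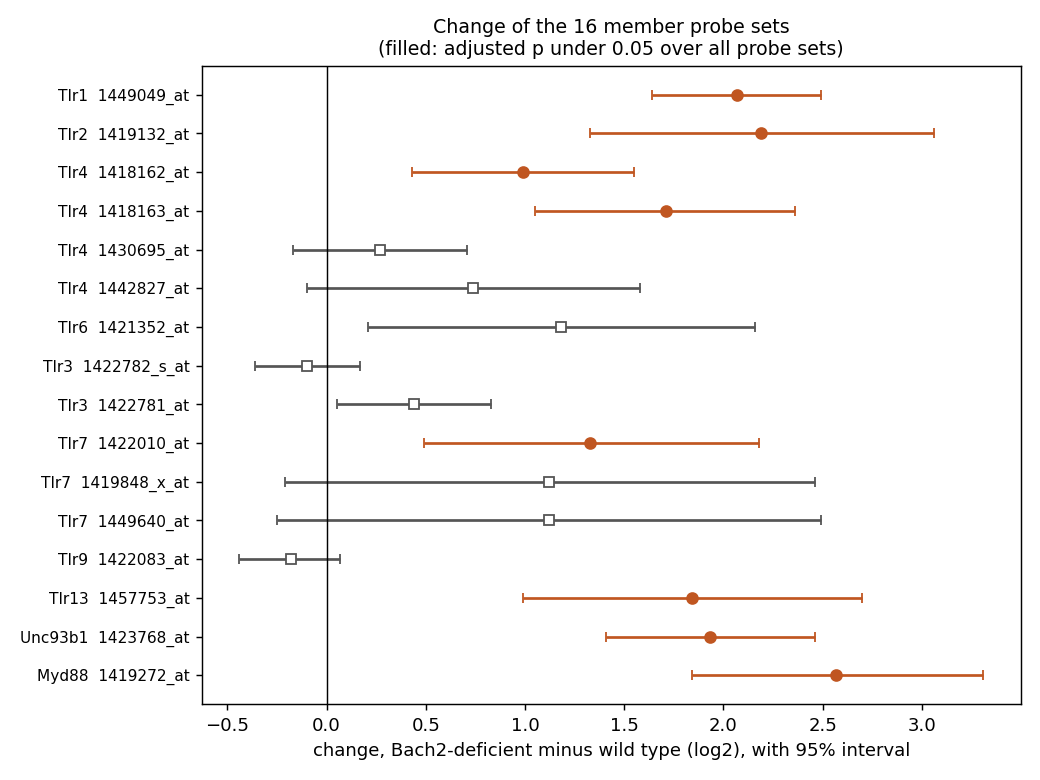
Change of each of the 16 probe sets, Bach2-deficient minus wild type in log2 units on the x axis, with the 95% interval of the limma fit; filled circles passed an adjusted p under 0.05 over all 34945 single-gene probe sets. The 8 that passed are the single probe sets of Tlr1, Tlr2, Tlr13, Unc93b1 and Myd88, 2 of the 4 for Tlr4 and 1 of the 3 for Tlr7.

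Surface and endosomal receptors were set against each other by centring each gene on its own mean over all arrays and averaging the 4 genes of each class. The surface mean ran from -1.51 to -0.36 in wild type and from 0.12 to 1.43 in Bach2-deficient tumors, without overlap, a difference of 1.61. The endosomal mean ran from -0.73 to -0.04 and from -0.18 to 0.66, with Bach2-deficient replicate 1 inside the wild-type range, a difference of 0.72. The difference between the classes, surface minus endosomal, was -0.95, -0.49, 0.11, -0.56 and -0.32 on wild-type arrays 1 to 5 and 0.30, 0.11, 0.99, 0.50 and 0.31 on Bach2-deficient arrays 1 to 5, and rose by 0.88 between the groups, or by 0.84 with each gene as the mean of its probe sets. Wild-type replicate 3 and Bach2-deficient replicate 2 met at 0.11. These class values are given as a description with no test. Within the endosomal class the members parted: Tlr7 and Tlr13 changed by 1.33 and 1.84, Tlr3 and Tlr9 by -0.10 and -0.18. The changes of Tlr7 and Tlr13 lay within those of the surface genes, 0.99 for Tlr4 to 2.19 for Tlr2. The lower endosomal difference thus rests on Tlr3 and Tlr9 and does not describe the class as a whole. Tlr9, with a mean of 4.81, lay under the dim limit of 4.98, so its value allows no statement.

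Differences between the changes of single genes were tested within arrays for 8 pairs, with an exact permutation test (2-sided, smallest possible p 0.00794) and adjustment over the 8 pairs. Tlr2 minus Tlr4 ran from -2.33 to -1.30 in wild type and from -1.09 to 0.06 in Bach2-deficient tumors, a difference of 1.21 (SE 0.26) on non-overlapping arrays that did not pass after adjustment (exact p = 0.00794, adjusted p = 0.0635). It rests on Tlr4 probe set 1418162_at, which changed by 0.99, whereas 1418163_at changed by 1.71. Tlr7 minus Tlr9 differed by 1.52 (SE 0.46; exact p = 0.0238, adjusted p = 0.0635) and Tlr3 minus Tlr7 by -1.43 (SE 0.48; exact p = 0.0238, adjusted p = 0.0635). Tlr7 minus Tlr13 differed by -0.51 (SE 0.19; exact p = 0.0476, adjusted p = 0.0952), and Unc93b1 minus Myd88 by -0.64 (SE 0.27; exact p = 0.0714, adjusted p = 0.114). The smallest of the 8 differences was that of Tlr2 minus Tlr1, 0.13 (SE 0.31; exact p = 0.683), with the arrays of the groups interleaved. Tlr1 minus Tlr6 differed by 0.89 (SE 0.50) and Tlr2 minus Tlr6 by 1.01 (SE 0.49), each with an exact p of 0.111 and an adjusted p of 0.127. After adjustment 0 of the 8 pairs passed, and 4 had an unadjusted exact p under 0.05. A pair that stands alone at the smallest possible exact p gets an adjusted p of 0.0635, so it could not pass by itself. That 0 pairs passed therefore does not show that the changes were equal. Of these 4, Tlr7 minus Tlr9 is set against a gene too dim for a statement on its change. Without wild-type replicate 5, 4 pairs passed (Tlr2-Tlr4, Tlr7-Tlr9, Tlr7-Tlr13 and Unc93b1-Myd88), and without Bach2-deficient replicate 1, 3 did (Tlr2-Tlr4, Tlr7-Tlr9 and Tlr3-Tlr7).

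**Figure D3:**
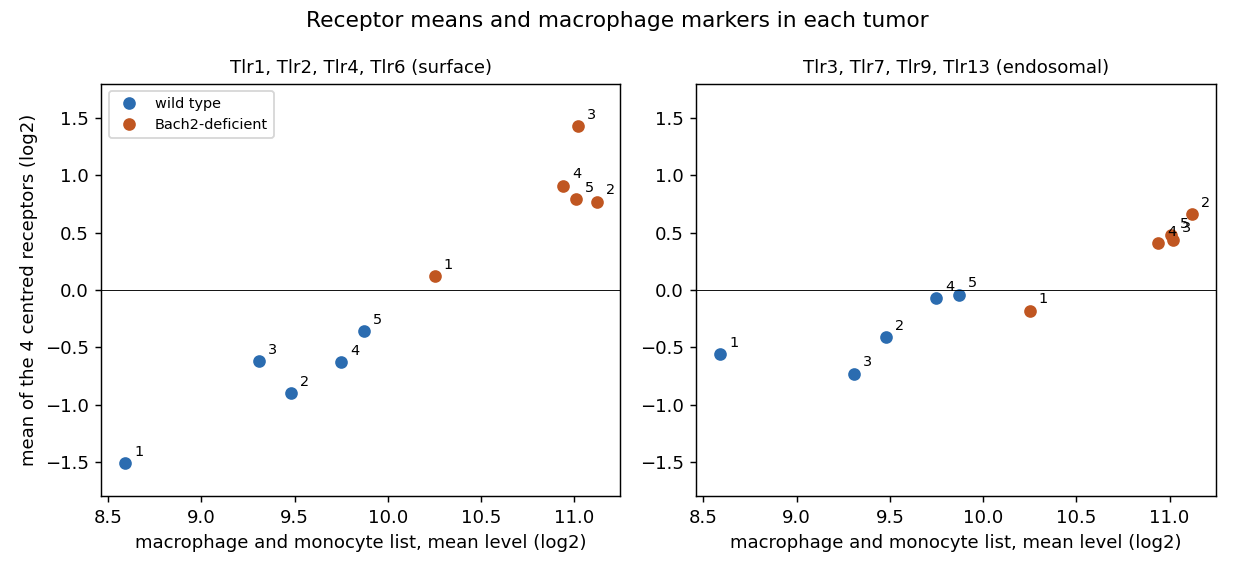
Mean of the 4 surface receptors (left) and of the 4 endosomal receptors (right), each gene centred on its own mean, in log2 units on the y axis, against the mean log2 level of the macrophage and monocyte list on the x axis; points are arrays with their replicate numbers, blue for wild type and orange for Bach2-deficient. Wild-type replicate 1 is lowest on the x axis at 8.59, and Bach2-deficient replicate 1 is the lowest of its group at 10.25.

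Marker genes of other cell types moved with these results. Of 15 measured macrophage and monocyte markers 12 rose and 0 fell, and their mean level ran from 8.59 to 9.87 in wild type and from 10.25 to 11.12 in Bach2-deficient tumors, without overlap. Bach2-deficient replicate 1, the lowest of its group on that list, was also the lowest of its group for 8 of the 10 genes described here. Conventional dendritic cell markers rose in 8 of 10 cases (mean level 6.51 to 7.27 against 7.70 to 8.77) and plasmacytoid dendritic cell markers in 6 of 9 (6.75 to 7.84 against 7.88 to 9.02). Not called were Flt3 (0.63, limma adjusted p = 0.146) and Zbtb46 (0.19, adjusted p = 0.542) of the conventional list. Of the plasmacytoid list, Ly6d (0.87, adjusted p = 0.126), Tcf4 (0.08, adjusted p = 0.747) and Spib (0.53, adjusted p = 0.485) were not called. Among B cell markers 0 of 9 were called, with mean levels of 5.33 to 5.96 against 4.92 to 7.26, and 4 of them lay among the dimmest 30% of genes. Neutrophil markers rose in 2 of 10 cases (7.32 to 7.74 against 7.22 to 9.0) and T cell markers in 10 of 10 (6.01 to 7.34 against 9.38 to 10.76). NK cell markers rose in 7 of 7 (5.69 to 6.95 against 8.82 to 10.24) and eosinophil and mast cell markers in 5 of 10 (4.72 to 5.19 against 5.73 to 7.84). Of melanocyte markers 5 of 12 fell, and of red cell markers 3 of 4 fell. Of endothelial markers 4 of 10 fell and 1 rose (Pecam1, 2.00). Of fibroblast markers 3 of 9 fell and 1 rose (Thy1, 3.32). The array values have no true 0, so no defining marker could be called absent. The part of cell numbers in the changes of the receptor genes was not tested apart from fits with list means as covariates. With the macrophage list mean as a covariate, Myd88 changed by 1.10, Tlr1 by 1.24, Unc93b1 by 1.05, Tlr2 by 0.18, Tlr6 by 0.19, Tlr13 by -0.17, Tlr4 by -0.37 and Tlr7 by -0.59, and 0 of the 10 genes passed in limma. Only 3 genes of the whole table passed there, and the list means of the groups do not overlap.

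Tlr7, Tlr8 and Tlr13 lie on the X chromosome, and Xist parted the groups except for Bach2-deficient replicate 2. That replicate, the one Bach2-deficient array with high Xist, read 10.28 for Tlr7 and 10.22 for Tlr13, the highest values of all 10 arrays and above the wild-type ranges that end at 9.06 and 8.78. When Xist status entered the fit, the change compared only Bach2-deficient replicate 2 with the wild-type arrays. The other Bach2-deficient arrays had low Xist and did not enter the change, so it restates the values of that replicate. The changes there were 1.94 for Tlr7, 2.30 for Tlr13, 2.33 for Tlr1, 2.20 for Unc93b1 and 2.78 for Myd88. Those of Tlr2 and Tlr4 were 2.03 and 0.93. The part of Xist status in the changes was not tested, nor that of the Y chromosome genes, which split the arrays in the same way.

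**Figure D4:**
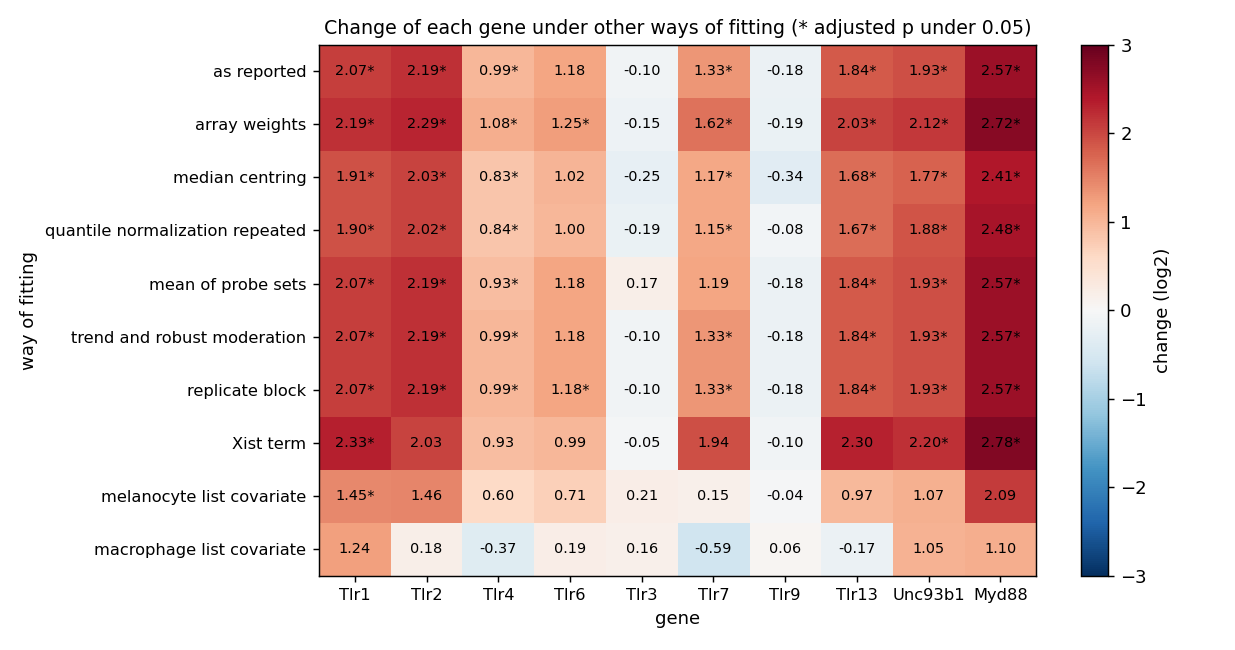
Change of each of the 10 genes (columns, log2, colour scale from blue for lower to red for higher in Bach2-deficient tumors) under the reported fit and 9 other ways of fitting (rows); an asterisk marks a limma adjusted p under 0.05. Tlr1 keeps its call in every row except the one with the macrophage list, whose row has no asterisk. The row with the Xist term compares only Bach2-deficient replicate 2 with wild type.

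Beyond the 10 genes, 76 measured genes of the pathway gave 52 rises and 0 falls, with 24 not called. Of all genes tested, 16.3% were called as rises and 12.4% as falls. The median change of the 76 genes was 1.14, beside a median of -0.06 over all genes. The lists were drawn up by role, but with earlier results of these data known, so the counts here and below are a description. With median centring 47 rose and 1 fell. Of the remaining receptors, Tlr5, the flagellin receptor, read 4.87 to 5.34 in wild type and 5.44 to 6.33 in Bach2-deficient tumors and rose by 0.82 (SE 0.17, limma adjusted p = 0.00544). Tlr8, beside Tlr7 on the X chromosome, read 3.17 to 4.47 and 4.09 to 6.13 and rose by 1.92 (SE 0.41, adjusted p = 0.00638). Its mean over all arrays, and not only its wild-type level, lay among the dimmest 30% of genes. As for Tlr9, no statement of presence is made. Tlr12, a profilin receptor, rose by 1.02 (SE 0.28, adjusted p = 0.0205), a call lost without Bach2-deficient replicate 4 (0.94, adjusted p = 0.0546), and with the mean of its probe sets the change was 0.48 (adjusted p = 0.0296).

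Co-receptors rose with the receptors, in 4 of 6 cases with a median of 1.11. Cd14, which hands lipopolysaccharide to Tlr4, read 8.31 to 9.68 in wild type and 10.38 to 12.80 in Bach2-deficient tumors and rose by 2.05 (SE 0.45, limma adjusted p = 0.0073). Cd180, a Toll-like receptor relative, rose by 2.24 and its partner Ly86 by 1.43. Ly96, encoding the MD-2 protein that binds lipopolysaccharide on Tlr4, rose by 0.41 (adjusted p = 0.0189) but not without Bach2-deficient replicate 2 (0.38, adjusted p = 0.0543) or 5 (0.37, adjusted p = 0.05), with median centring (0.25, adjusted p = 0.0909) or with quantile normalization repeated (0.27, adjusted p = 0.0873). The lipopolysaccharide-binding protein gene Lbp (0.80, adjusted p = 0.0797) and the scavenger receptor gene Cd36 (0.26, adjusted p = 0.457) did not pass. Of 10 chaperone, transport and endosomal protease genes, 5 rose, with a median of 0.33. The lysosomal transporter gene Slc15a3 rose by 2.74 and the endosomal protease genes Lgmn and Ctss by 1.37 and 0.86.

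**Figure D5:**
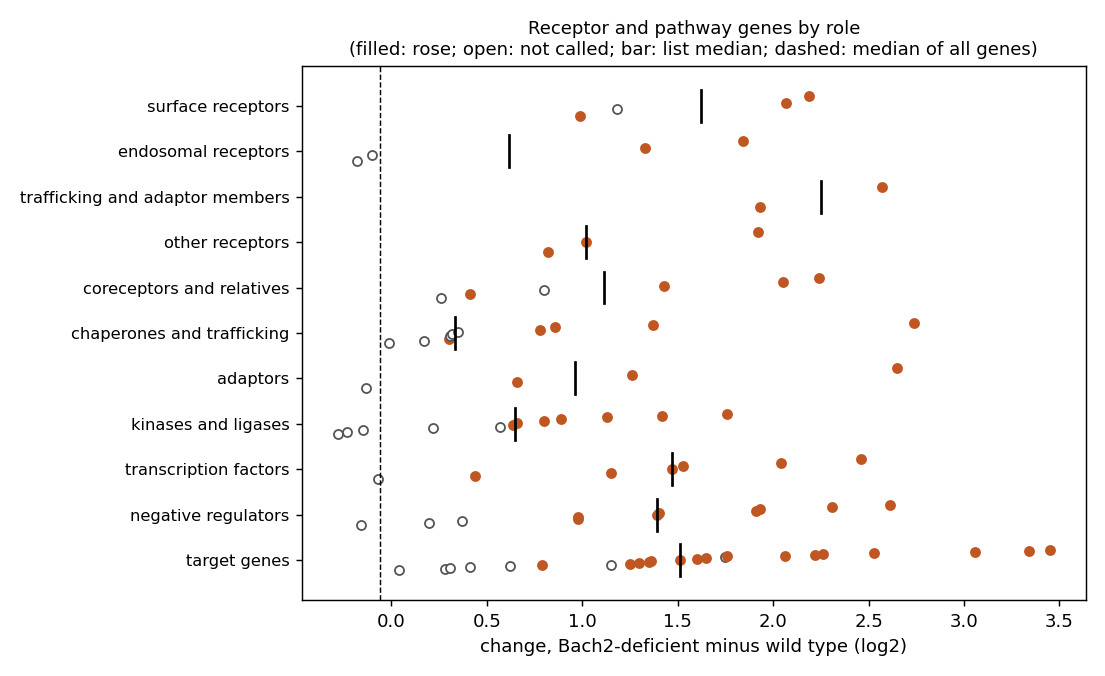
Change of each measured gene in log2 units (x axis) by role (y axis) for the 10 genes and the other pathway genes; filled points rose at a limma adjusted p under 0.05, open points were not called, upright bars are list medians and the dashed line is the median of all genes at -0.06. No point stands for a fall.

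Inside the cell, 3 of 4 adaptor genes rose. Pik3ap1, an adaptor to phosphoinositide 3-kinase, rose by 2.65 (SE 0.32, limma adjusted p = 0.000423), and Ticam1, which encodes the TRIF adaptor of Tlr3 and Tlr4, rose by 1.26 (SE 0.27, adjusted p = 0.00659). Tirap, which bridges Myd88 to the surface receptors, rose by 0.66 (adjusted p = 0.0418); that call was lost in 8 of the fits without 1 array, those without wild-type replicate 1, 2, 3 or 5 or Bach2-deficient replicate 2, 3, 4 or 5. It was also lost with the mean of probe sets (0.39, adjusted p = 0.322), median centring (0.50, adjusted p = 0.0864) and repeated quantile normalization (0.51, adjusted p = 0.0919). Sarm1 changed by -0.13 without passing. Of 12 kinase and ligase genes 7 rose, with a median of 0.65. The smallest adjusted p-values were those of Irak2, a kinase recruited by Myd88 (1.42), and of the related kinases Ikbke (1.13) and Tbk1 (0.80), which act on interferon regulatory factors. The largest rise was that of the kinase gene Map3k8 (1.76, limma adjusted p = 0.00526), named after its value was seen. Of 7 transcription factor genes 6 rose, with a median of 1.47: Irf7, which drives type I interferon genes, by 2.46 (SE 0.26, adjusted p = 0.000283), and the NF-kappaB subunit genes Rel and Nfkb2 by 2.04 and 1.53. With the mean of its probe sets Nfkb2 rose by 0.81 (adjusted p = 0.00413).

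Negative regulators rose too, 8 of 11, with a median of 1.39. They included the deubiquitinase gene Cyld (1.40, SE 0.13, limma adjusted p = 0.000183), the phosphatase gene Ptpn6 (1.93) and the repressor gene Atf3 (1.39). Of 23 genes known to be induced by Toll-like receptor signalling 16 rose, with a median of 1.51. Ccl5, a T cell and monocyte chemokine, rose by 3.34 (SE 0.37, adjusted p = 0.000316), the costimulatory receptor gene Cd40 by 2.06 and Cxcl10 by 1.65. Interferons and many other signals also induce these genes. Ifnb1 (0.41, adjusted p = 0.332) and Il12a (0.04, adjusted p = 0.903), picked out after their values were seen, did not pass.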

How the data were processed

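Per the labels, RNA of whole dissected B16 tumors was labelled with biotin and hybridised to expression arrays. The deposited log2 values were made by the authors with RMA (background correction, quantile normalization, summary of probes per probe set) and Partek, per the submitters' processing notes; their versions and the genome build were not given in the sources used here. Scale was read from the values (1.99 to 14.4). There were no detection calls, and precision is limited by how many arrays there were.

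Groups came from the sample titles. Of 45101 probe sets 34945 carried 1 gene symbol, 932 several and 9160 none (64 were controls); the first kind was used. The brightest probe set on average stood for a gene. Differences were fitted over all 10 arrays with limma 3.58.1 in R 4.3.3 (lmFit, eBayes, genotype alone, 2-sided) and adjusted over 18193 genes or 34945 probe sets. The fit was tested on simulated data. The members and gene lists were chosen with earlier results of these data known. Every member was named, every gene of pathway lists of up to 6, and otherwise the 3 with the smallest adjusted p and any that moved against the rest. Other probe set choices, scalings, filters, weights, covariates, the replicate block and leaving out each array were tried. Promoters came from RefSeq (GRCm38.p6).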

Additional observations from a re-analysis of the deposited data

Results flagged for a closer look

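In 90 groups of 5 arrays (45 probe sets or genes in each genotype), 6 held an array far from the other 4 by Dixon's criterion, where chance gives about 1 in 20. Bach2-deficient replicate 1 was the array in 4 of the 6. It read 8.33 for Tlr7 (probe set 1422010_at), against 9.81 for the next lowest of its group. It read 7.95 for Myd88, against 8.74. It also read 13.29 for the protease gene Ctss, against 13.63, and 11.81 for the deubiquitinase gene Cyld, against 12.26. Without it Tlr7 changed by 1.67 (limma adjusted p = 0.00134) and Myd88 by 2.75 (limma adjusted p = 0.000327). Wild-type replicate 1 read 9.48 for Atf3, against 9.90, and wild-type replicate 3 read 10.70 for Cxcl10, against 10.99.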

How the results depend on the processing

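Of 209 values of the 10 genes under the alternatives, 175 kept their direction and their side of the threshold, 22 lost a call, 4 gained one and 8 changed sign. With the macrophage list as a covariate the called genes Tlr4 (-0.37), Tlr7 (-0.59) and Tlr13 (-0.17) changed sign, as did the uncalled Tlr3 (0.16) and Tlr9 (0.06). Tlr3 also changed sign with the mean of probe sets (0.17), without _x_at and _s_at probe sets (0.44) and with the melanocyte covariate (0.21). Among named pathway genes the macrophage covariate turned Cd180 (-0.44), Ctss (-0.03), Tirap (-0.10) and the uncalled Cd36 (-0.93); the cause was not tested. That fit called 3 genes of the table, 0 of the 10 genes and 0 pathway genes. The melanocyte list as a covariate called 75 genes, 1 of the 10 (Tlr1) and 0 pathway genes, and the Xist term 1417 genes, 3 of the 10 and 16 pathway genes. Leaving out 1 array at a time gave 3658 to 5925 genes, 6 to 8 of the 10 genes, 46 to 54 pathway genes and 0 to 4 of the 8 pairs. The replicate numbers were not treated as pairs, and these values do not settle whether they pair the arrays. Arrays of the same number had a correlation of deviations from the group means of 0.01 to 0.32, over 0.1 for 2 of 5 numbers. Of the 10 arrays, 4 correlated best with their own number. With the replicate block 4952 genes, 8 of the 10 genes (Tlr6 added) and 52 pathway genes passed. For the 28 named pathway genes, 485 of 502 values kept direction and side of the threshold outside the covariates and the Xist term. The values allow no statement on dim genes such as Tlr9.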

Other observations

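Genes whose array-to-array variation most resembled that of a receptor were sought after removing each group's mean, over 10 arrays and among genes above the dimmest 30%. The measure was Pearson's r, given as a description with no p, and with so many genes compared high values arise easily. Tlr7 lay closest to Havcr2, which encodes the inhibitory receptor TIM-3 (r = 0.98), to Irf2, an interferon regulatory factor gene (0.98), and to 1600014C10Rik (0.98). Unc93b1 lay closest to Fam102a (0.99), to Dock2, a leukocyte motility gene (0.98), and to the actin branching gene Arpc2 (0.97). Tlr2 lay closest to Cd274, encoding the checkpoint ligand PD-L1 (0.95), to Nfkbia, an inhibitor of NF-kappaB (0.95), and to Oasl2 (0.95). Tlr13 was nearest to the class I gene H2-Q5 (0.99), Nfe2 (0.98) and Ceacam1 (0.98). Myd88 was nearest to the ectonucleotidase gene Entpd1 (0.98), Golph3l (0.98) and the interleukin 4 receptor gene Il4ra (0.97). For Tlr1 they were Chd1 (0.97), Diaph1 (0.96) and Sv2c (0.96), and for Tlr4 Fem1c (0.98), Myo1c (0.97) and the water channel gene Aqp1 (0.96), which itself changed by -2.32 between the groups. The nearest genes of Tlr6 (8030451A03Rik, Rarres1 and Marchf11, r = 0.96, 0.93 and 0.92) and of Tlr9 (Tmem213, Cela3b and Gm10785, r = 0.93, 0.91 and 0.91) did not change between the groups at an adjusted p under 0.05 in limma. Those of Tlr3 were 1700066M21Rik (0.96), Rxylt1 (0.95) and Nr5a1 (0.94), of which Rxylt1 fell by 1.02.

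Among the members themselves, within groups, Tlr7 varied with Tlr13 (r = 0.91) and with Unc93b1 (r = 0.91) over the 10 arrays, while Tlr3 varied against Tlr1 (r = -0.71), Tlr6 (r = -0.63) and Tlr2 (r = -0.61). Bach2-deficient replicate 1 was the lowest of its group for Tlr7 (8.33), Tlr13 (8.69) and Unc93b1 (6.43). That array thus weighs heavily on their r values, which were not computed without it. The 10 arrays share the same tumors and the same scaling, so these values describe them only.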
